A study of Homo sapiens with 4 samples.

Results

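The transcription factor NRF2 (gene NFE2L2), the genes it is known to activate and the cell's general antioxidant enzymes were followed as a set of 36 genes, chosen by symbol from the 58302 genes listed for each library. The set held 3 regulators (NFE2L2, NFE2L1 and KEAP1), 18 NRF2 targets and 15 general antioxidant enzymes. RNA sequencing had been done on HepG2, a human hepatocellular carcinoma cell line labelled wild type, treated with melatonin at 1 mM or with its solvent DMSO for 24 h or 48 h. One library was made for each of the 4 conditions, so each difference below compares 1 library with 1 library, has no replicate check and carries no p-value. All 4 cultures shared the same medium with serum and differed, by their labels, only in the agent and the time. A single cell line in culture was sampled as bulk RNA, in which a change in the share of cells that express a gene and a change in its RNA per cell cannot be told apart.

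Levels are the deposited FPKM, that is, sequenced fragments divided by a gene's length in kilobases and by a measure of library depth. Reads recovered from them summed to between 21616676 and 23086025 on genes per library, and mitochondrial genes held 20.0% and 16.6% of the reads at 24 h (DMSO, melatonin) against 9.77% and 11.9% at 48 h. All 8 liver markers examined were present, the lowest being HNF4A at 34.9 FPKM or more and ALB standing at 2717 FPKM or more. Of 5 markers of blood, stromal, endothelial and basal epithelial cells, KRT5 had 0 reads in every library, PTPRC 0 or 1 read, and PECAM1 was the highest at 0.407 to 0.940 FPKM. A gene was compared where it reached 1 FPKM in either library. Differences are log2((FPKM + 1)/(FPKM + 1)), called at 2-fold (1 on this scale), with 1.5-fold (0.585) as a second threshold. Statements of which of the 4 libraries was highest or lowest rest on the deposited FPKM. Other scalings shift 24 h libraries against 48 h libraries, and some of these ranks then change. Intervals are 95% exact intervals of the reads (Poisson for a level, binomial for the log2 of a plain ratio of a pair of libraries) and cover counting error only. Gene positions are those listed with the values, on the human genome hg38.

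NRF2 is a basic leucine zipper factor that is held low in unstressed cells because KEAP1, a cysteine-rich adaptor of a CUL3 ubiquitin ligase, marks it for degradation. Oxidants and electrophiles modify KEAP1, NRF2 accumulates, pairs with a small MAF protein and binds antioxidant response elements in genes of glutathione synthesis, thioredoxin recycling, NADPH supply and detoxification. Superoxide dismutases, catalase, most peroxiredoxins and several glutathione peroxidases remove superoxide and peroxides in nearly all cells and depend on NRF2 less strictly. Because the factor is regulated mainly by protein turnover, its mRNA is not a measure of its activity. Melatonin, a pineal indoleamine, is known both as a direct radical scavenger and for effects on antioxidant genes, which is the question these values bear on at the level of mRNA.

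The core of the antioxidant response element, TGACNNNGC, was searched on both strands in RefSeq promoter windows of GRCh38.p14, each 250 bases before to 50 bases after a start. Windows were given for 28 of the 36 genes (not for HMOX1, GSR, PRDX1, AKR1B10, SOD1, PRDX6, TXN2 and GSS). The core occurred in 6 of 14 NRF2 targets (42.9%; PGD, GCLM, EPHX1, ME1, TXNRD1 and GPX2), in 0 of 11 general enzymes and in 1 of 3 regulators (KEAP1), against 16.1% of all 27305 genes with a window. A gene counted if any of its windows held the core. Genes of the set had up to 4 windows, and the background was not matched for their number. In the wider lists described below the core occurred in 12 of 29 further targets (41.4%), 2 of 9 further regulators (22.2%) and 7 of 26 further antioxidant and NADPH genes (26.9%). The longer form TGACNNNGCA, which contains the core, occurred in GCLM, EPHX1, TXNRD1 and GPX2 among the targets, 28.6% of the 14, against 3.94% of all genes. Among the further targets its share was 13.8%, and among the further antioxidant and NADPH genes 11.5%. Stretches upstream of the start are shown for 5 targets whose mRNA levels are compared below, 5′ to 3′ on the gene's strand, with the 9 letters of the core in capitals. On the strand opposite to the gene the core reads GCNNNGTCA.
GPX2: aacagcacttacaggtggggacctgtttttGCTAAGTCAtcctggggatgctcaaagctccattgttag
GCLM: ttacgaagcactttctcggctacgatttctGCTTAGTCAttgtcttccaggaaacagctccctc
EPHX1: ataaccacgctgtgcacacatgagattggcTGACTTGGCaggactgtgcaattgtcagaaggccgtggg
TXNRD1: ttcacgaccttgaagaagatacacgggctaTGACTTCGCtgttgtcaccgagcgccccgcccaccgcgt
PGD: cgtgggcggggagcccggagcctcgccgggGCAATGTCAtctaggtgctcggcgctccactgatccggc

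These stretches lie at chr14:64942829-64942897 for GPX2 (core 122 bases upstream), chr1:93909431-93909494 for GCLM (34 bases), chr1:225825246-225825314 for EPHX1 (78 bases), chr12:104215650-104215718 for TXNRD1 (99 bases) and chr1:10398833-10398901 for PGD (201 bases). GPX2 and GCLM are on the minus strand and the others on the plus strand. The stretches shown for TXNRD1 and PGD hold the core and not the longer form. For TXNRD1 the longer form lies in another window, at chr12:104286900-104286968 (102 bases upstream of that window's start), which is not shown. A match of letters is a description and not a bound site. Sequence outside the windows was not searched, so a gene without a match may hold the core elsewhere. The genes with a match did not share a direction: at 48 h the melatonin library was lower for GPX2 and TXNRD1 and higher for GCLM and PGD.

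With melatonin for 24 h the 35 genes that could be compared lay close to their DMSO levels, and 0 of them passed 2-fold, where 4.35% of all 13582 genes compared did. SRXN1, the sulfiredoxin that restores overoxidised peroxiredoxins, was the 1 gene past 1.5-fold higher (background 4.02%, or 1.79% of genes with at least 50 reads in both libraries), and 0 passed 1.5-fold lower (7.53%, or 2.75% with at least 50 reads). At 48 h GPX2, the gastrointestinal glutathione peroxidase, fell past 2-fold, 1 of 35 genes against 5.72% of 13805. Past 1.5-fold lower at 48 h were GPX2, NQO1, PRDX1 and AKR1C1, 4 of 35 genes against a background of 10.0% (6.32% with at least 50 reads). Past 1.5-fold higher were PGD, GPX3 and GSS, 3 of 35 against 8.62% (6.34% with at least 50 reads). Of 35 genes, 1 is 2.86%, 3 are 8.57% and 4 are 11.4%, so the counts over the whole set lie near the background. By list, the 4 genes lower at 48 h were all NRF2 targets, 4 of 17 (23.5%) against 0 of 15 general enzymes, and the higher genes were 1 of 17 targets and 2 of 15 general enzymes. With 1 library per condition these splits are a description. The remaining gene, ME1, the cytosolic malic enzyme, had 0, 0, 0 and 1 read in the 4 libraries and was not compared.

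**Figure D1:**
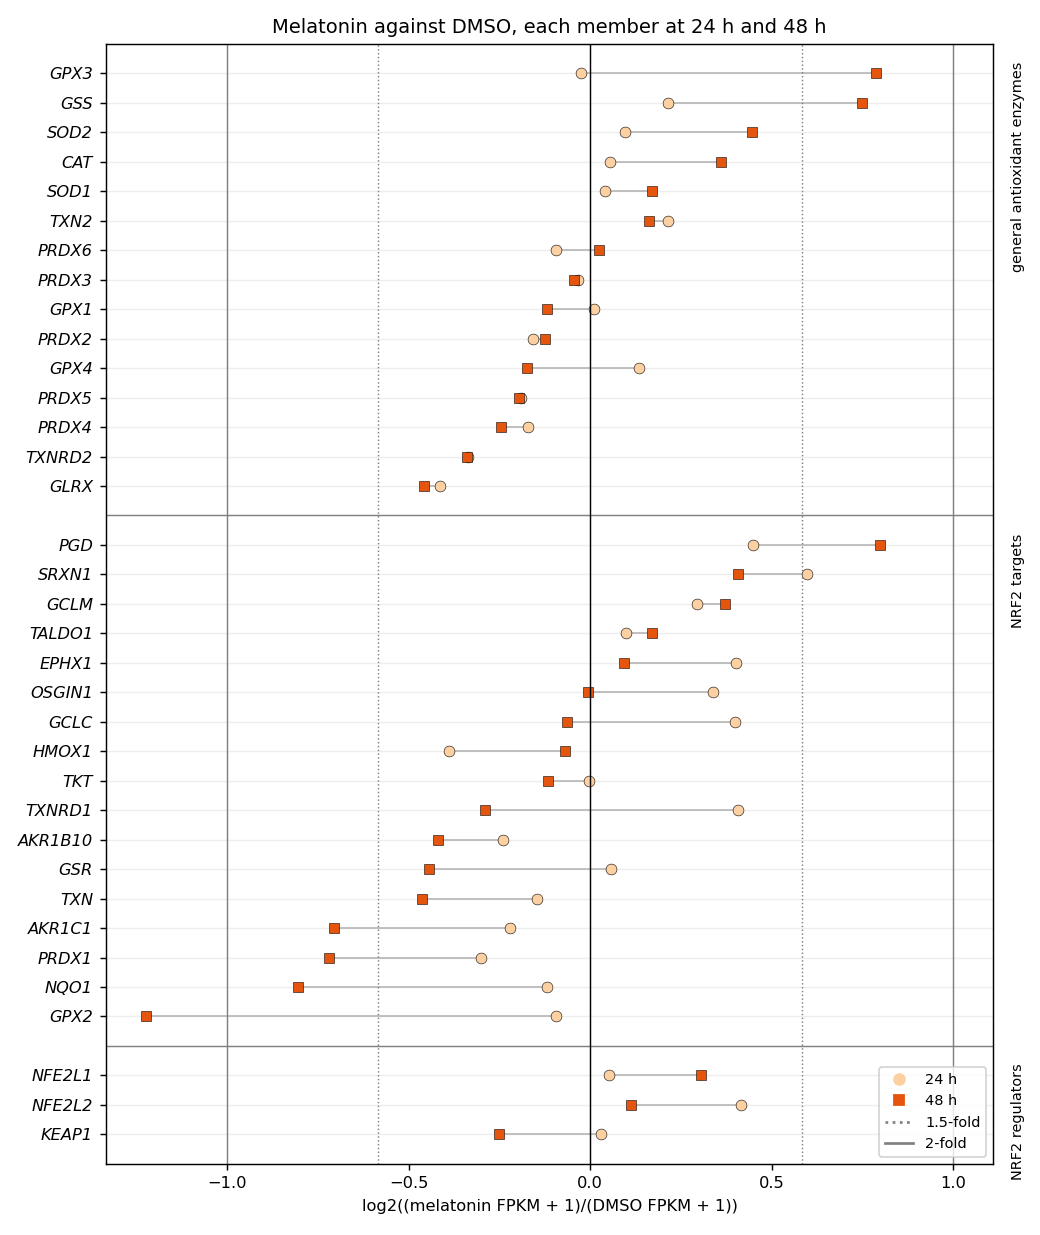
Log2 fold change of melatonin over DMSO (x axis, log2((FPKM + 1)/(FPKM + 1))) for each of the 35 genes compared, grouped by role, with circles for 24 h and squares for 48 h and lines at 1.5-fold and 2-fold. GPX2 at -1.22 is the single point past 2-fold, and the NRF2 targets spread more widely at 48 h than at 24 h.

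Among the regulators, NFE2L2 (chr2:177227595-177392697) stood at 16.8 FPKM (DMSO) and 22.8 FPKM (melatonin) at 24 h, and at 19.9 and 21.5 at 48 h. The DMSO 24 h library was the lowest and the melatonin 24 h library the highest. Its log2 fold change with melatonin was 0.42 at 24 h (interval of the ratio 0.35 to 0.52) and 0.11 at 48 h (0.04 to 0.19), neither past 1.5-fold. KEAP1, its repressor (chr19:10486120-10503741), stood at 22.7 and 23.2 FPKM at 24 h (DMSO, melatonin) and at 28.1 and 23.5 at 48 h, so that the DMSO 48 h library alone was high. Its log2 fold changes were 0.03 and -0.25. NFE2L1, the related factor best known for controlling proteasome genes, was at 57.4 to 73.1 FPKM, lowest in the DMSO 48 h library, with log2 fold changes of 0.05 and 0.30. NFE2L2 overlaps AGPS and 6 other genes above 1 FPKM, the highest of the 7 reaching 24.7 FPKM, and the strand used in counting is not given in the sources used here.

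Glutathione is made in sequence by glutamate-cysteine ligase, of which GCLC is the catalytic and GCLM the modifier subunit, and by glutathione synthetase (GSS). GCLM had 6.85 and 8.63 FPKM at 24 h (DMSO, melatonin), and 5.06 and 6.85 at 48 h. It was higher with melatonin at both times, by 0.29 and 0.37 on the log2 scale (intervals 0.19 to 0.48 and 0.28 to 0.59), under 1.5-fold each time. GCLC was higher at 24 h (13.3 against 17.9 FPKM, log2 0.40) and not at 48 h (19.2 against 18.3 FPKM, log2 -0.06). The ratio of GCLC to GCLM within a library, which no scaling of the library can move, was 1.94 and 2.07 at 24 h (DMSO, melatonin) and 3.79 and 2.67 at 48 h, so the DMSO 48 h library stood apart in it. GSS (chr20:34928430-34955817) had 42.7 and 49.7 FPKM at 24 h and 21.5 and 36.8 at 48 h. Its rise at 48 h, log2 0.75 (interval 0.66 to 0.90), was past 1.5-fold, after 0.21 at 24 h. The DMSO 48 h library was the lowest of the 4 for GSS, and on the deposited scale the melatonin 48 h level remained under both 24 h levels.

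Glutathione reductase (GSR), which regenerates reduced glutathione from NADPH, had 59.3 and 61.8 FPKM at 24 h (DMSO, melatonin) and 47.4 and 34.6 at 48 h. The melatonin 48 h library was the lowest, at a log2 fold change of -0.44 (interval -0.53 to -0.38), after 0.06 at 24 h. Glutaredoxin (GLRX), which uses glutathione to reduce mixed disulfides, had 8.09 and 5.83 FPKM at 24 h and 13.6 and 9.63 at 48 h. It was lower with melatonin by nearly the same amount at both times, with log2 fold changes of -0.41 and -0.46. RHOBTB3 overlaps GLRX and reached 13.1 FPKM, so part of the reads could belong to either gene.

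The glutathione peroxidases divided. GPX2 (chr14:64939152-64942905) had 174 FPKM with DMSO at 24 h (interval 169 to 179), 163 with melatonin at 24 h (159 to 168), 198 with DMSO at 48 h (193 to 203) and 84.3 with melatonin at 48 h (81.2 to 87.5). The melatonin 48 h library was the lowest and the DMSO 48 h library the highest. The reads behind these levels were 4797, 4968, 6516 and 2806. The log2 fold change was -0.09 at 24 h (0.08 under TPM, which scales each library to the same sum) and -1.22 at 48 h (interval of the ratio -1.30 to -1.17). Its level fell by 57.5% at 48 h. GPX3, the secreted plasma peroxidase, showed another pattern, with 26.1 and 25.6 FPKM at 24 h and 6.73 and 12.4 at 48 h. It rose past 1.5-fold with melatonin at 48 h (log2 0.79, interval 0.71 to 1.04), and both 48 h libraries were below both 24 h libraries.

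GPX1, the widespread cytosolic selenoenzyme, had 75.6, 76.2, 44.5 and 40.9 FPKM, taking DMSO before melatonin at 24 h and then at 48 h. GPX4, which reduces lipid hydroperoxides in membranes and guards against ferroptosis, had 72.5, 79.7, 67.9 and 60.0 FPKM in the same order. Melatonin and DMSO differed by at most 0.17 on the log2 scale for either gene at either time. GPX2 exceeded GPX1 by 2.31, 2.14, 4.45 and 2.06 times and GPX4 by 2.41, 2.05, 2.92 and 1.40 times within the libraries. Both ratios were highest in the DMSO 48 h library and lowest in the melatonin 48 h library. These and the other ratios within libraries were picked after their values were seen.

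**Figure D2:**
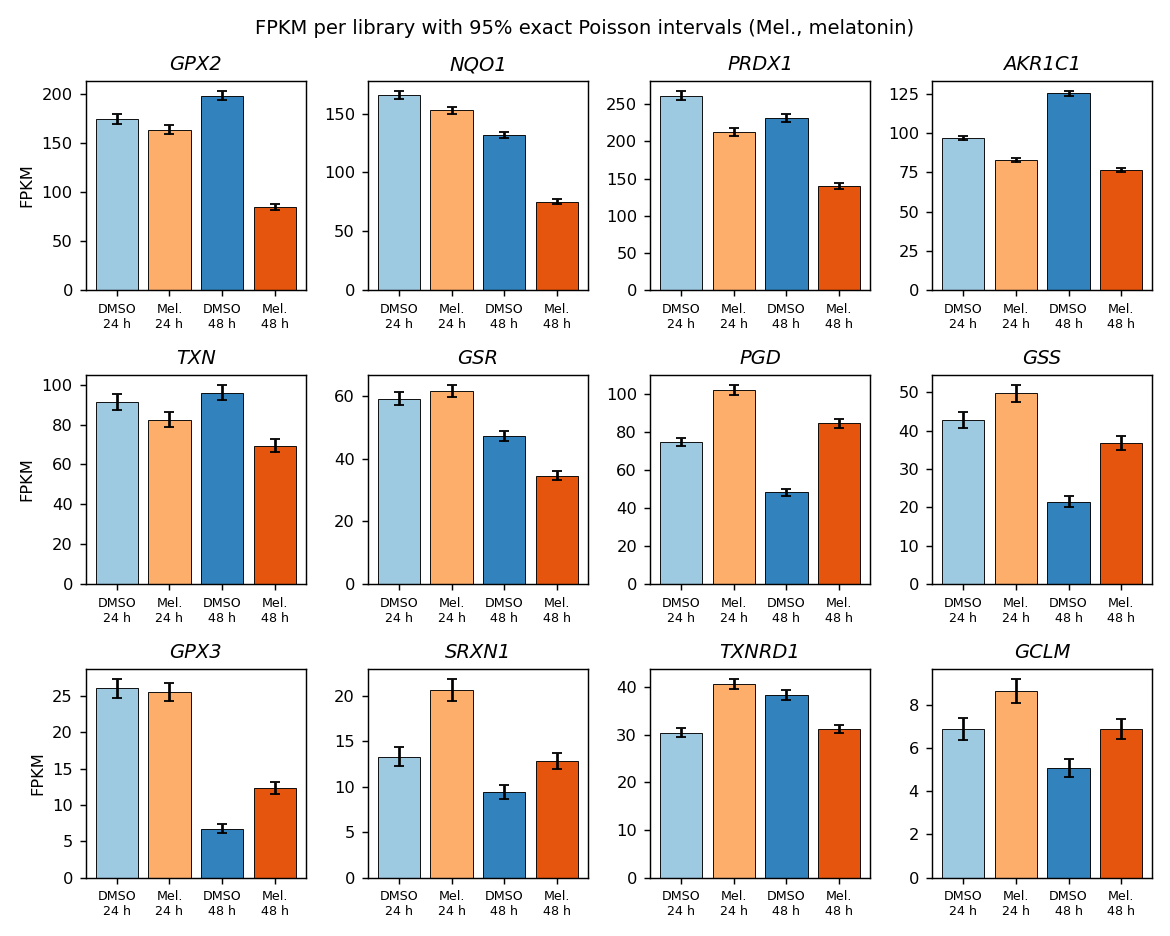
FPKM in each of the 4 libraries (bars from 0, y axis in FPKM) with 95% exact Poisson intervals of the reads, for 12 of the 36 genes. GPX2, NQO1, PRDX1, AKR1C1, TXN and GSR are lowest in the melatonin 48 h library, while PGD, SRXN1 and GCLM are higher with melatonin at both times.

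In the thioredoxin system, thioredoxin (TXN) is reduced by thioredoxin reductase (TXNRD1) and passes electrons to the peroxiredoxins, which break down hydrogen peroxide. PRDX1 (chr1:45511036-45523047), the most abundant gene of the set by FPKM, had 262 and 212 FPKM at 24 h (DMSO, melatonin), and 232 and 140 at 48 h. It was lower with melatonin at both times, by a log2 fold change of -0.30 (interval -0.35 to -0.25) and then -0.72 (-0.77 to -0.67), the latter past 1.5-fold. TXN had 91.3 and 82.4 FPKM at 24 h and 96.0 and 69.4 at 48 h, with log2 fold changes of -0.15 (0.03 under TPM) and -0.46. On the deposited scale the melatonin 48 h library was again the lowest for both genes, which for TXN does not hold under TPM.

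TXNRD1 (chr12:104215779-104350305) had 30.5 and 40.7 FPKM at 24 h (DMSO, melatonin) and 38.4 and 31.2 at 48 h. The order of the agents turned between the times, with log2 fold changes of 0.41 (interval 0.36 to 0.48) and -0.29 (-0.35 to -0.24). The pseudogene RPL18AP3, inside the TXNRD1 locus, reached 197 FPKM, and reads near it may be split. SRXN1 (chr20:646615-653370) had 13.3 and 20.7 FPKM at 24 h and 9.40 and 12.8 at 48 h. It was higher with melatonin at both times, rising past 1.5-fold at 24 h (log2 0.60, interval 0.50 to 0.78) and reaching 0.41 at 48 h (0.29 to 0.61). Centring on the median of all genes took SRXN1 at 24 h to 0.576, just under the 1.5-fold line. SRXN1 acts on PRDX1, and the level of SRXN1 relative to PRDX1 within a library was 0.0508 (DMSO) and 0.0973 (melatonin) at 24 h, and 0.0406 and 0.0912 at 48 h. Both melatonin libraries were above both DMSO libraries in this ratio.

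The other peroxiredoxins differed little between melatonin and DMSO. PRDX2, of the cytosol, had log2 fold changes of -0.16 and -0.12 (24 h, 48 h), PRDX3, of mitochondria, -0.03 and -0.04, PRDX4, of the endoplasmic reticulum, -0.17 and -0.24, PRDX5 -0.19 and -0.20, and PRDX6, which has a single active cysteine, -0.09 and 0.02. The signs of PRDX2, PRDX3, PRDX4 and PRDX6 at 24 h turned when the values were rescaled to TPM, so no direction is given for them. PRDX3 had the smallest ratio of highest to lowest level among the 35 genes, 1.04 (38.5 to 40.2 FPKM). The mitochondrial thioredoxin TXN2 had 22.9 and 26.7 FPKM at 24 h and 20.0 and 22.4 at 48 h (log2 0.22 and 0.16). Its reductase TXNRD2 had 3.11 and 2.26 FPKM at 24 h and 3.12 and 2.25 at 48 h (log2 -0.34 at each time, intervals -0.66 to -0.27 and -0.65 to -0.28). Partners in mitochondria thus differed from DMSO in opposite directions, each under 1.5-fold.

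NADPH feeds both systems and comes largely from the pentose phosphate pathway. PGD, 6-phosphogluconate dehydrogenase, which makes NADPH in the oxidative branch (chr1:10398592-10420144), had 74.6 and 102 FPKM at 24 h (DMSO, melatonin), and 48.1 and 84.4 at 48 h. Melatonin libraries were above DMSO libraries at both times, at log2 0.45 (interval 0.40 to 0.51) and 0.80 (0.75 to 0.87), the rise at 48 h passing 1.5-fold. The non-oxidative enzymes lay closer to DMSO, TALDO1 (transaldolase) at log2 0.10 and 0.17 and TKT (transketolase) at -0.00 and -0.12. The ratio of PGD to TALDO1 within a library was 1.49 (DMSO) and 1.90 (melatonin) at 24 h, and 1.56 and 2.42 at 48 h, higher with melatonin each time.

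Of the detoxifying enzymes, NQO1, the quinone reductase widely used as a readout of NRF2 (chr16:69706996-69726951), had 166 and 153 FPKM at 24 h (DMSO, melatonin), and 132 and 75.1 at 48 h. The log2 fold change was -0.12 at 24 h (interval -0.16 to -0.08), which turned to 0.05 under TPM, and -0.80 at 48 h (-0.86 to -0.76), past 1.5-fold. Relative to SOD1 in the same library NQO1 was 2.11 and 1.89 at 24 h and 2.53 and 1.28 at 48 h. AKR1C1, an aldo-keto reductase of steroids and reactive aldehydes (chr10:4963253-4983283), had 96.9 and 83.0 FPKM at 24 h and 125 and 76.5 at 48 h. Its log2 fold changes were -0.22 and -0.70, the latter past 1.5-fold (interval -0.74 to -0.68). AKR1C1 shares near-identical sequence with AKR1C2, so its reads are uncertain, and AKR1C2 itself had log2 fold changes of 0.18 and -0.52. AKR1B10, a related reductase, had 48.8 and 41.1 FPKM at 24 h and 23.7 and 17.5 at 48 h (log2 -0.24 and -0.42), with each melatonin level under its DMSO level.

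HMOX1, the haem oxygenase that is among the most inducible NRF2 targets, was low throughout, at 10.5 and 7.75 FPKM at 24 h (DMSO, melatonin) and at 7.38 and 6.98 at 48 h. The DMSO 24 h library was the high one, and the log2 fold changes were -0.39 (interval -0.63 to -0.23) and -0.07 (-0.29 to 0.13). EPHX1, microsomal epoxide hydrolase, was at 57.0 and 75.7 FPKM at 24 h and at 45.9 and 49.0 at 48 h (log2 0.40 and 0.09). OSGIN1, an inhibitor of growth induced by oxidative stress, was at 8.56 and 11.1 FPKM at 24 h and at 17.2 in both libraries at 48 h (log2 0.34 and -0.01). Of these 6 detoxifying and stress targets, EPHX1 and OSGIN1 were higher with melatonin at 24 h, and at 48 h 4 were lower under each scaling, EPHX1 was above its DMSO level by 0.09 and OSGIN1, at -0.01, took the other sign under 4 of 7 alternatives.

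The superoxide dismutases and catalase stayed under 1.5-fold at both times. SOD1, the cytosolic copper-zinc enzyme, had 78.6 and 81.0 FPKM at 24 h and 52.1 and 58.8 at 48 h (log2 0.04 and 0.17, intervals -0.03 to 0.11 and 0.09 to 0.26). SOD2, the mitochondrial manganese enzyme, had 17.99 and 19.3 FPKM at 24 h and 14.1 and 19.6 at 48 h, with log2 fold changes of 0.10 and 0.45 (intervals 0.05 to 0.15 and 0.43 to 0.52). CAT, the peroxisomal catalase, had 21.1 and 22.0 FPKM at 24 h and 13.9 and 18.2 at 48 h (log2 0.06 and 0.36, intervals -0.05 to 0.17 and 0.27 to 0.50). On the deposited scale the DMSO 48 h library was the lowest of the 4 for each of these genes, which for SOD2 does not hold under TPM. The reads of SOD2 are uncertain because ACAT2 and WTAP overlap it, the most abundant overlapping gene reaching 29.9 FPKM. Its listed length of 18985 bp also lowers its FPKM against that of SOD1, listed at 2019 bp.

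**Figure D3:**
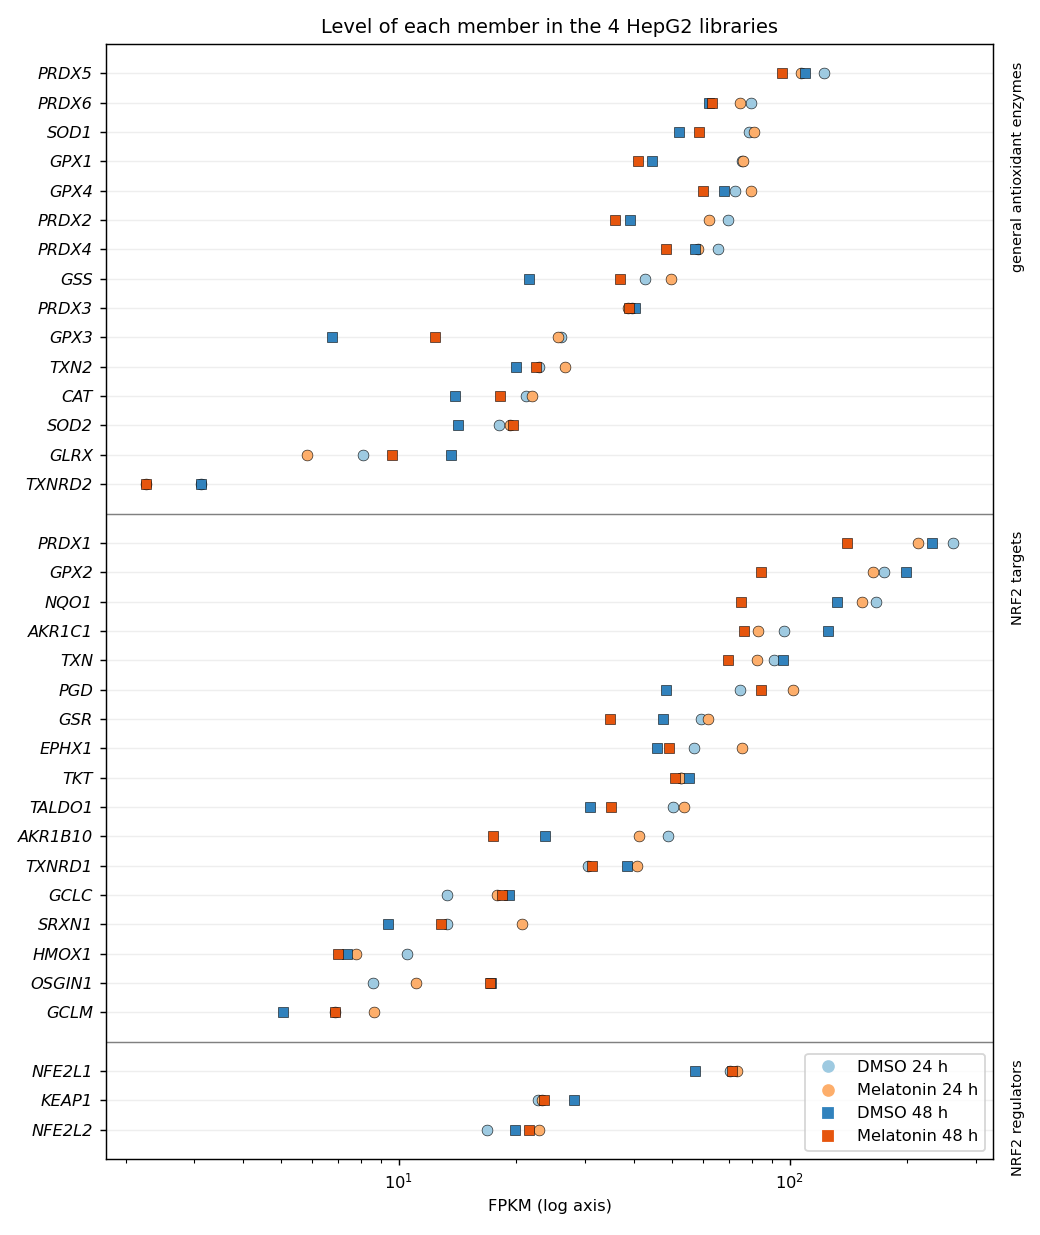
FPKM of the 35 genes compared (log x axis) in the 4 libraries, light circles for 24 h, dark squares for 48 h, blue for DMSO and orange for melatonin. The melatonin 48 h squares lie at the left end for 9 of the 17 NRF2 targets shown, and levels run from about 2.25 FPKM for TXNRD2 to 262 for PRDX1.

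The NRF2 targets and the general enzymes were set side by side. At 24 h the median log2 fold change of melatonin over DMSO was 0.06 for 17 NRF2 targets (9 higher, 8 lower) and -0.02 for 15 general enzymes (7 higher, 8 lower), beside 0.02 for all genes compared (53.5% higher). At 48 h the medians were -0.12 for the targets (5 higher, 12 lower) and -0.04 for the general enzymes (7 higher, 8 lower), beside -0.02 for all genes (47.5% higher). The targets lay 0.08 above the general enzymes at 24 h and 0.07 below them at 48 h (difference of medians -0.07). Under TPM the 24 h medians were 0.23 and 0.15 beside 0.17 for all genes. With mitochondrial genes left out of the library size the 48 h medians were -0.05 and 0.02 beside 0.04 for all genes. The values ran from -1.22 to 0.80 for the targets and from -0.46 to 0.79 for the general enzymes at 48 h. Over both times 5 targets were higher and 8 lower at each time, 4 were higher and then lower, and 0 were lower and then higher. The general enzymes counted 5, 6, 2 and 2 in the same classes. These splits depend on the scaling: under TPM the targets were 13 higher and 4 lower at 24 h and counted 5, 4, 8 and 0 in those classes, and the general enzymes were 12 higher and 3 lower at 24 h.

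**Figure D4:**
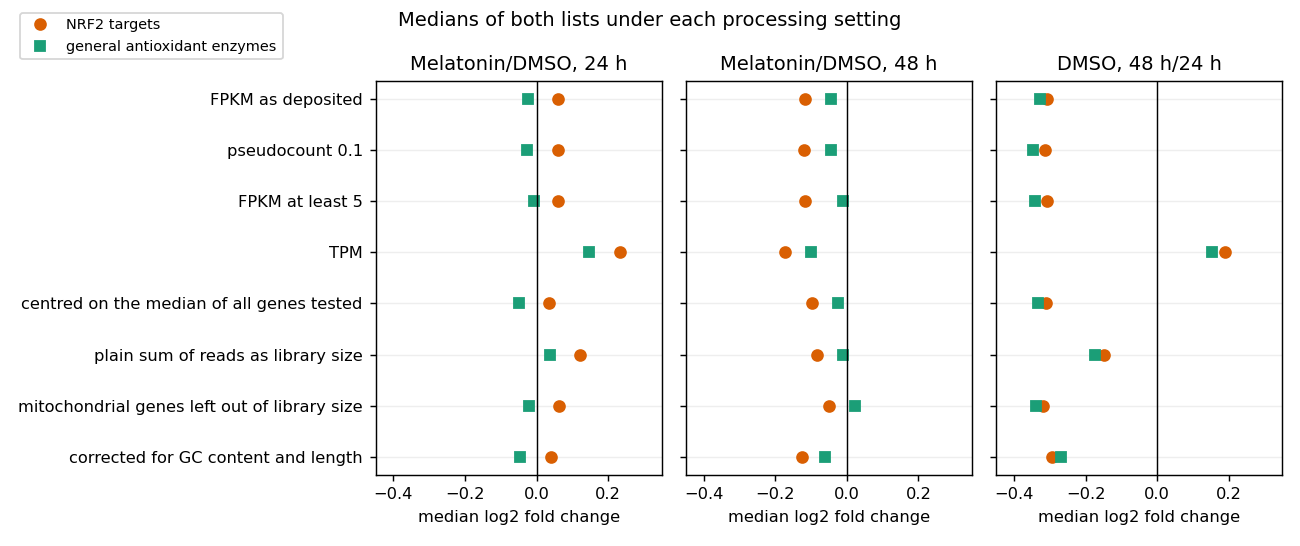
Median log2 fold change (x axis) of the NRF2 targets (circles) and the general antioxidant enzymes (squares) under each processing setting (rows), for melatonin over DMSO at 24 h and 48 h and for DMSO at 48 h over 24 h. The 2 lists move together from setting to setting, with the targets 0.08 above at 24 h and the difference at -0.07 at 48 h as deposited.

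The levels of each list were also summed, which gives abundant genes more weight. The 18 NRF2 targets summed to 1216 and 1188 FPKM at 24 h (DMSO, melatonin), and to 1131 and 810 at 48 h, a difference of -2.30% and then of -28.4%. The 15 general enzymes summed to 745 and 729 FPKM at 24 h and to 566 and 563 at 48 h, or -2.19% and -0.529%. All nuclear genes together differed by 0.420% and -3.60%. The 37 further NRF2 targets described below summed to 5369 and 6965 FPKM at 24 h and to 3334 and 4022 at 48 h. These sums were 29.7% and 20.6% higher with melatonin. FTL alone held 4407 and 5938 FPKM of the 24 h sums and 2470 and 3234 FPKM of the 48 h sums. Its rise made up most of the rise of this list at 24 h and exceeded that of the whole list at 48 h. Without FTL the further targets together were thus lower with melatonin at 48 h. Within the set, GPX2, PRDX1, NQO1 and AKR1C1, chosen for their differences, made up 96.9% of the net fall of the 18 targets at 48 h. The other 14 of these 18 summed to 444 FPKM with DMSO and 434 with melatonin. Melatonin minus DMSO at 48 h was -114 FPKM for GPX2, -91.2 for PRDX1, -56.8 for NQO1 and -48.8 for AKR1C1, while PGD stood at 36.3 on the same measure. Ranks over the 4 libraries were counted on the deposited scale only. TPM shifts 24 h against 48 h, so some of these ranks change under it. The melatonin 48 h library was the lowest of the 4 for 9 of 17 targets (52.9%) and for 6 of 15 general enzymes (40%), against 23.7% of all genes. It was the highest for 1 of the 35 genes, SOD2 (2.86%, all genes 18.3%). The DMSO 48 h library, its control, was the lowest for 37.1% and the highest for 28.6% of the 35 genes, beside 32.4% and 33.1% of all genes. Beside these differences at 48 h (DMSO, melatonin), of the 8 liver markers TTR (50.6, 256 FPKM), HNF4A (34.9, 43.8) and SERPINA1 (1342, 1486) were higher, AFP (1902, 782), TF (740, 388), APOA1 (974, 691) and FGB (78.9, 59.5) were lower and ALB stood at 2760 and 2717 FPKM. Their part in the result was not tested.

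The DMSO libraries of 24 h and 48 h also differed from each other, and time and any other difference between these cultures or libraries cannot be told apart. Between the DMSO libraries 2 of 35 genes passed 2-fold (AKR1B10 and GPX3, both lower at 48 h) against 7.74% of all genes. GPX3 had the widest difference, with a log2 fold change of -1.81, and AKR1B10 had -1.01. Past 1.5-fold lower were 8 genes (PGD, TALDO1, AKR1B10, SOD1, GPX1, GPX3, PRDX2 and GSS), 22.9% against 12.6% of all genes. SOD1, at -0.585, lay on that line. Past 1.5-fold higher were 2 (OSGIN1 and GLRX) against 11.2%. These counts are those of the deposited scale only. OSGIN1 went from 8.56 to 17.2 FPKM (log2 0.93). The medians were -0.31 for the targets and -0.33 for the general enzymes, beside 0.00 for all genes, and with each library rescaled to TPM they were 0.19 and 0.15 beside 0.46 for all genes. The mitochondrial share of reads was 20.0% in the 24 h and 9.77% in the 48 h DMSO library. With mitochondrial genes left out of the library size the medians were -0.32 and -0.34 beside -0.005 for all genes.

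Between the melatonin libraries 2 of 35 genes passed 2-fold lower at 48 h, NQO1 (log2 -1.01) and AKR1B10 (-1.19), against 4.15% of all genes past 2-fold. Past 1.5-fold lower were 11 genes against 6.05% of all genes, of which 8 were NRF2 targets (NQO1, GSR, SRXN1, GPX2, PRDX1, TALDO1, EPHX1 and AKR1B10) and 3 general enzymes (GPX1, GPX3 and PRDX2). OSGIN1 and GLRX passed 1.5-fold higher, 2 of 35 against 6.76%. The medians were -0.37 for the targets and -0.26 for the general enzymes, beside -0.04 for all genes. TALDO1, AKR1B10, GPX1, GPX3 and PRDX2 were past 1.5-fold lower with time under either agent. NQO1, GSR, SRXN1, GPX2, PRDX1 and EPHX1 were past it in the melatonin libraries and not in the DMSO libraries. PGD, SOD1 and GSS were past it in the DMSO libraries and not in the melatonin libraries. This sorting rests on the threshold: SRXN1 was at -0.46 with DMSO and -0.65 with melatonin, and SOD1 at -0.585 and -0.46. GPX2 stood at log2 0.18 with DMSO and -0.95 with melatonin, and PRDX1 at -0.18 and -0.60. These are the same 4 libraries seen from the other side and no second observation, and the difference between agents was not tested. TPM raised the median of all genes by 0.46 for DMSO and by 0.27 for melatonin. The plain sum of reads raised it by 0.14 and 0.11. Time differences smaller than these hold only for the deposited scale, and the counts past a threshold with time were made on that scale only.

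**Figure D5:**
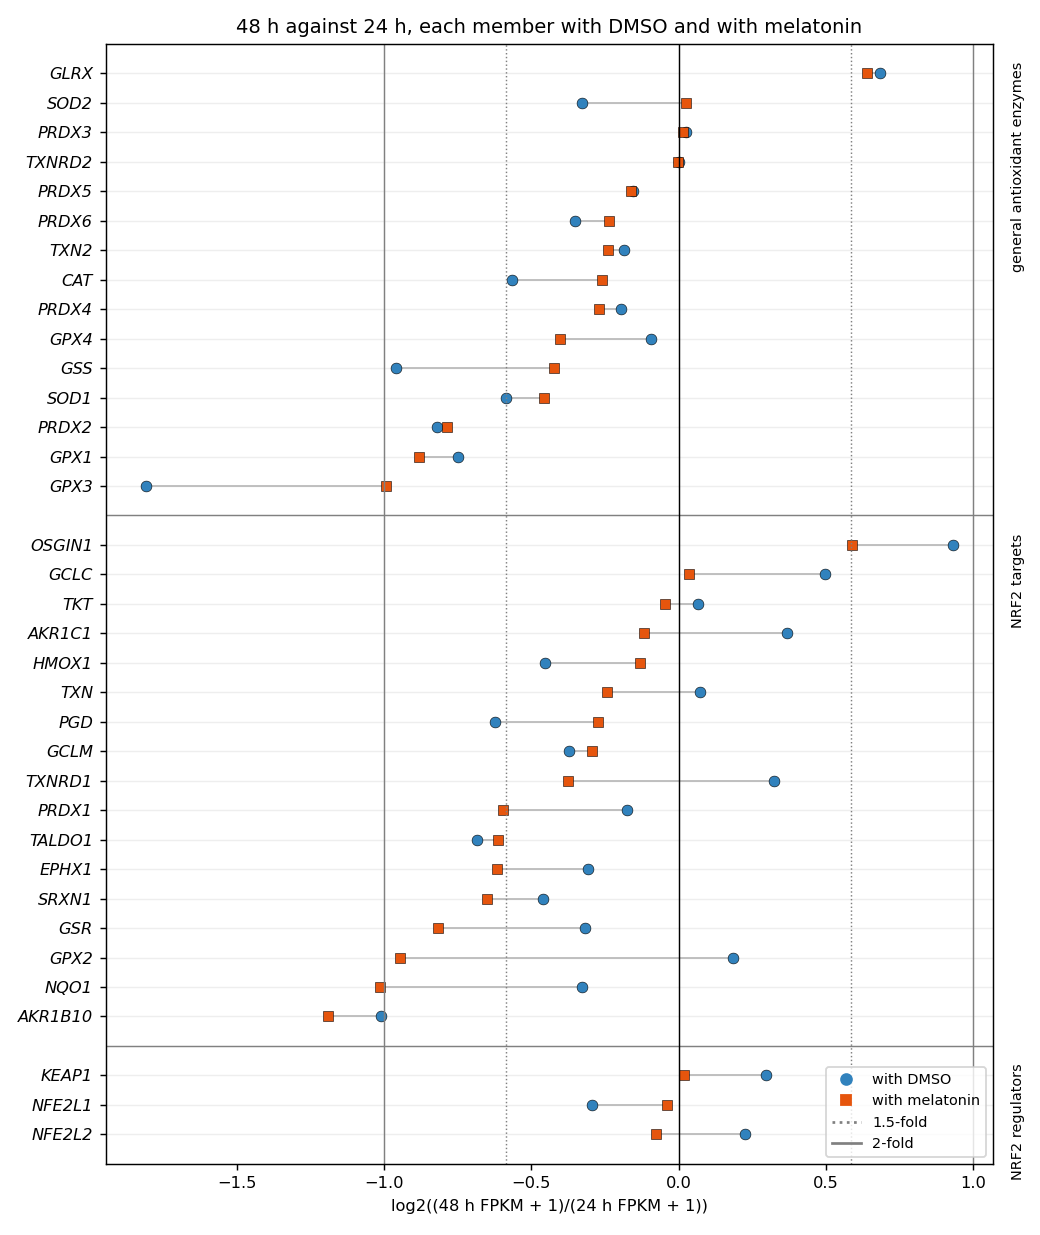
Log2 fold change of 48 h over 24 h (x axis, log2((FPKM + 1)/(FPKM + 1))) for the 35 genes, with circles for the DMSO libraries and squares for the melatonin libraries and lines at 1.5-fold and 2-fold. GPX3 at -1.81 with DMSO is the farthest point, and GPX2 lies at 0.18 with DMSO and -0.95 with melatonin.

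In the wider pathway, 10 further regulators, 37 further NRF2 targets and 29 further antioxidant and NADPH genes were described, and 60 of these 76 could be compared at 24 h and 61 at 48 h. At 24 h MAFK passed 1.5-fold lower, 1 of 60 (1.67%, all genes 7.53%, or 2.75% with at least 50 reads). At that time 0 passed it higher (all genes 4.02%, or 1.79% with at least 50 reads). At 48 h 9 of 61, SESN3 among them through its melatonin library alone, passed 1.5-fold higher (14.8%, all genes 8.62%, or 6.34% with at least 50 reads). Lower at 48 h were 4 (6.56%, all genes 10.0%, or 6.32% with at least 50 reads). The wider lists themselves were not held to 50 reads. The further targets had medians of 0.08 and 0.11 (24 h, 48 h) and the further antioxidant genes of 0.08 and 0.14, both slightly above 0. The further regulators had medians of -0.03 and -0.29.

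The mRNAs of the small MAF proteins, partners of NRF2 at the element, were lower with melatonin at 48 h. MAFG had 17.8 and 18.6 FPKM at 24 h (DMSO, melatonin) and 40.0 and 18.8 at 48 h, a log2 fold change of 0.06 and then of -1.05. MAFF had 5.21 and 3.86 FPKM at 24 h and 8.92 and 3.71 at 48 h, at -0.35 and -1.08. MAFK had 15.6 and 10.1 FPKM at 24 h and 23.0 and 12.0 at 48 h, past 1.5-fold lower at both times (-0.59 and -0.88). For all 3 genes the DMSO 48 h library was the highest, and for MAFG the other libraries lay together. BACH1, a repressor that competes for the same element, ranged from 4.81 to 5.50 FPKM and differed by 0.04 at each time.

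SQSTM1, an autophagy receptor that binds KEAP1 and is itself a target, had 27.5 and 33.7 FPKM at 24 h and 43.4 and 35.3 at 48 h. Its log2 fold changes of 0.28 and -0.29 turned between the times as those of TXNRD1 did. SLC7A11, the cystine importer for glutathione synthesis, had 13.4 and 17.1 FPKM at 24 h and 18.5 and 17.5 at 48 h (log2 0.33 and -0.08). FTL, the ferritin light chain, had 4407 and 5938 FPKM at 24 h and 2470 and 3234 at 48 h, higher with melatonin by 0.43 and 0.39. FTH1, the heavy chain, had 392 and 416 FPKM at 24 h and 337 and 312 at 48 h (log2 0.08 and -0.11). TXNIP, which inhibits thioredoxin, was under 1 FPKM in every library, at 0.485 to 0.704 FPKM, and was not compared.

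The other genes of these lists past a threshold at 48 h were picked after their values were seen. SESN3, a sestrin, had 0.0824 and 0.597 FPKM at 24 h and 0.0992 and 1.49 at 48 h, from 23 to 349 reads at 48 h, and passed 2-fold there (log2 1.18), though it was compared only because the melatonin library passed 1 FPKM, and at 24 h it was under 1 FPKM in both libraries. MSRB2, a mitochondrial methionine sulfoxide reductase, rose at 48 h (72 reads with DMSO, 193 with melatonin, log2 1.01). Past 1.5-fold higher were also GPX7 (log2 0.87), FECH, the last enzyme of haem synthesis (0.82), SLC48A1, a haem transporter (0.81), GSTA4 (0.80), IDH2, a mitochondrial source of NADPH (0.67), GSTM4 (0.63) and BLVRB, a biliverdin reductase (0.60). UGDH, which makes UDP-glucuronate, was the 1 further target past 1.5-fold lower (log2 -0.59), with 88.8 FPKM with DMSO and 58.6 with melatonin at 48 h.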

How the data were processed

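Polyadenylated RNA of HepG2 was sequenced in 4 libraries, 1 per condition. The authors deposited FPKM per Ensembl gene with a gene length, already scaled by a library size that is not stated. The submitters' processing notes name Bowtie2 2.0.6, TopHat2 2.0.9, Cufflinks 2.1.1 and Cuffdiff 2.1.1, while the paper's methods name other mapping software, and which of them made the values was not resolved. Each value multiplied by its gene's length came to whole steps of 1 read (100% of values, tolerance 0.1 read), which gave the reads used for intervals. The library sizes so implied ranged from 18357838 to 22205042 and were below the summed reads in every library. Gene length is a listed exon length, so levels are compared between genes per that length only. Where strand is not given, the reads of 12 of the 36 genes with an overlapping gene of at least 1 FPKM are uncertain, while named pseudogenes held at most 2.28% of a gene's reads.

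The genes, lists and comparisons were chosen with earlier results of these data known. Genes given in every library were those called, the 5 largest differences in each direction that kept their sign at both times, and a short list of regulators, targets and enzymes. Some genes of the wider lists or overlapping the set are not reported here, and the counts of the wider lists leave them out. The floor was 3 reads. Alternatives were a pseudocount of 0.1, no or a higher FPKM minimum (5), a 1.5-fold threshold, TPM, centring, the plain sum of reads, mitochondrial genes left out, and a correction for GC content (GENCODE 44, given for 35 of 36 genes) and length. The minimum of 50 reads was chosen after seeing the data. Scripts were tested on simulated data. Python 3.11, numpy 2.4.6, pandas 2.3.3, scipy 1.17.1 and matplotlib 3.10.9 were used.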

Additional observations from a re-analysis of the deposited data

Results flagged for a closer look

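A pair of genes was higher with melatonin at 24 h and lower at 48 h, with both differences at least 0.25 on the log2 scale and both counting intervals leaving out 0. TXNRD1, thioredoxin reductase, was at 0.41 at 24 h and -0.29 at 48 h, a difference between the times of -0.70. SQSTM1, the autophagy receptor that binds KEAP1, was at 0.28 and -0.29, a difference of -0.58. With 1 library per condition neither difference was tested.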

How the results depend on the processing

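The 2-fold calls, 0 of 35 genes at 24 h and GPX2 at 48 h, were the same under a pseudocount of 0.1, other FPKM minima, at least 50 reads, TPM, centring, library sizes without mitochondrial genes or as the plain sum of reads, and the correction for GC content and length, GPX2 ranging from -1.28 to -1.16. A 1.5-fold threshold gave 1 gene at 24 h and 7 at 48 h, by its construction. TPM moved the median of the NRF2 targets to 0.23 and of the general enzymes to 0.15 at 24 h, and between the DMSO libraries to 0.19 and 0.15, turning both positive there. The plain sum of reads moved the DMSO medians to -0.15 and -0.17. The cause of these moves is the scaling of whole libraries, since TPM raised the median of all genes by 0.15 at 24 h and by 0.46 between the DMSO libraries. Signs held under the 7 scalings and filters run per gene (6 for SOD2 and TXNRD2) for 25 of 35 genes at 24 h and 31 of 35 at 48 h, including all 7 past 1.5-fold at 48 h and SRXN1 at 24 h. No paired analysis was possible because the groups share 1 replicate number only. A fit of agent and time over the 4 libraries, which would take both times as repeats of 1 effect, was not run. Each of the 35 genes had at least 373 reads in every library, while some genes of the wider lists had far fewer, and the spread between cultures was not measured.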
